A study of Mus musculus with 8 samples.

Results

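Immune checkpoint and costimulatory ligands were followed in bulk RNA-Seq of mouse mammary tumors. They comprise 10 genes, chosen by name and matched to the deposited table by their Ensembl mouse identifiers: Cd274, Pdcd1lg2, Cd80, Cd86, Havcr2, Lgals9, Pvr, Nectin2, Cd276 and Vsir. All 10 were found among the 55414 identifiers of the table, and 9 of them passed the filter on low counts, which kept 14458 genes. Pdcd1lg2 did not pass and is described by its counts.

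The tumors grew from the PyMt cell line, a line established from a tumor of the MMTV-PyMt mouse, in which the mouse mammary tumor virus promoter drives the polyoma middle T oncogene in mammary epithelium. The cells were implanted into the inguinal mammary fat pad of wild-type C57BL/6 females aged 6 to 8 weeks, which keep their own immune cells. From 2 days after implantation, 20 nmol calcipotriol (a vitamin D analog, in EtOH) or EtOH alone was applied to the skin over the tumor every 2 days, with tumors collected 24 hours after the final application. The groups were 4 EtOH-treated tumors (replicates 1 to 4) and 4 calcipotriol-treated tumors (replicates 1, 5, 6 and 7), with 1 library each of 19685419 to 25084713 counts. All tumors came from 1 cell line, and the methods describe injected cells carrying either a control guide or a guide against Il20rb without saying which cells gave these libraries.

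T cells need a second signal beside antigen to become fully active, and tumors and their myeloid cells can supply or withhold it. CD80 and CD86 on antigen-presenting cells bind the activating receptor CD28 and the inhibitory receptor CTLA-4, whereas PD-L1 and PD-L2 bind the inhibitory receptor PD-1. Galectin-9 is a ligand of TIM-3, the nectin-family proteins PVR and Nectin-2 bind the activating receptor DNAM-1 and the inhibitory receptor TIGIT, and B7-H3 and VISTA are further members of the B7 family that restrain T cells. In tumors, several of these proteins are carried by macrophages and dendritic cells and others by the tumor cells themselves. Interferon gamma is a known inducer of PD-L1, and IL-4 and IL-13 are known inducers of PD-L2 in macrophages.

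Promoter sequences were read for 8 of the 10 genes from RefSeq (GRCm38.p6), with none for Cd86 and Pvr. Each window holds the 250 bases before the RefSeq start, given 5′ to 3′ on the gene's strand. Both strands were searched for the interferon gamma-activated site TTCNNNGAA, the interferon-stimulated response element (GAAA, any 2 bases, GAAA), and AGGTCA and AGTTCA, repeat units of vitamin D receptor elements. These letters were present in 7.02%, 2.98%, 14% and 11.8% of 32851 mouse promoter windows of the same length. The following 3 are shown because Vsir was the 1 member that passed both thresholds, and because Cd274 and Lgals9 encode a ligand of PD-1 and a ligand of TIM-3 whose windows held a match. Capitals mark a match, and a match of letters is a description and not a binding site.
Vsir (chr10:60346601-60346850, plus strand): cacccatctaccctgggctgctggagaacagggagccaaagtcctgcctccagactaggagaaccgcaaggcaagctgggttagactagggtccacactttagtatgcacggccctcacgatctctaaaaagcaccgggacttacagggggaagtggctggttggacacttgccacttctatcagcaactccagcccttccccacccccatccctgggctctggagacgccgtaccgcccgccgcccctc
Cd274 (chr19:29367188-29367437, plus strand): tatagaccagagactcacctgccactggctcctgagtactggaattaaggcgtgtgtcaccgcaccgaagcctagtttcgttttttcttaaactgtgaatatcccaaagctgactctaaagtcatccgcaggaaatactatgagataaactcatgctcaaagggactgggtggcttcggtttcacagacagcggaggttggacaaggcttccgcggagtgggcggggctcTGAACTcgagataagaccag
Lgals9 (chr11:78984925-78985174, minus strand): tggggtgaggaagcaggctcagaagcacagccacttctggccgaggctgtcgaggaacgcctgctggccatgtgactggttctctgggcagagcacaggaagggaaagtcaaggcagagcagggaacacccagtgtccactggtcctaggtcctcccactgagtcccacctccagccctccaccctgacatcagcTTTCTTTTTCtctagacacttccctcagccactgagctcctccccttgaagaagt
The Vsir window held none of the 4 motifs. The capitals in Cd274 are AGTTCA read on the other strand, with the first base 20 bases before the start. Those in Lgals9 are the interferon-stimulated response element on the other strand, 55 bases before the start. Havcr2 held AGGTCA 84 bases before its start, and the windows of Pdcd1lg2, Cd80, Nectin2 and Cd276 held no match.

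The libraries were bulk tumor RNA, although their labels name epithelial cells. Krt8 and Krt18, keratins of simple epithelium, averaged 593 and 558 CPM (counts scaled to library size) with EtOH. The epithelial adhesion gene Epcam averaged only 1.79 CPM, with 0, 0, 106 and 65 counts in EtOH replicates 1 to 4. The EtOH group also differed within itself in Ckm of muscle (0, 0, 223 and 243 counts) and the collagen gene Col1a1 (6227, 5577, 28519 and 23578). Krt8 ranged only from 523 to 652 CPM across these tumors. The part of this difference in the members' levels was not tested. Macrophage markers were abundant and moved with treatment. The summed level of 10 of them, among them Csf1r, Adgre1, Cd68, Mertk and C1qa, was 2090 to 2540 CPM with EtOH and 849 to 1900 CPM with calcipotriol. Most of this sum was C1qa, C1qb and C1qc, with means of 604, 493 and 398 CPM with EtOH. Cd68 and Fcgr1, unlike the other markers, were highest of all tumors in calcipotriol replicate 1, at 88.4 and 52.7 CPM. Calcipotriol replicate 1 stood apart: its macrophage sum was 1900 CPM, where calcipotriol replicates 5, 6 and 7 were at 849 to 1040 CPM, and its summed T cell markers reached 15.9 CPM against 3.48 to 6.08 CPM. Each of the 10 members was also highest in this tumor within the calcipotriol group, and their summed level was 313 CPM there, 173 to 186 CPM in replicates 5, 6 and 7, and 264 to 304 CPM with EtOH. Results are therefore given with and without this tumor where its absence changed them.

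The comparison of calcipotriol with EtOH asks which of these ligands changed in tumors under topical treatment. Vsir fell, 6 of the 9 tested members had a lower fitted level with calcipotriol and 3 a higher one, and the median log2 fold change of the 9 was -0.16, against 0.02 over all genes tested. A gene was called changed when its adjusted p in edgeR's quasi-likelihood test was under 0.05 and its log2 fold change was at least 1 in size. With these thresholds 2.02% of all genes tested were called, 0.948% lower and 1.07% higher. Of the members, 1 was called lower and 0 higher. Without the adjustment, 4 members (Vsir, Cd86, Lgals9 and Havcr2) had a p under 0.05 and were lower, against 9.84% of all genes tested. The groups did not overlap for 1 tested member, lower with calcipotriol, where 6.16% of all genes tested were separated in that direction and 6.32% in the other.

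**Figure D1:**
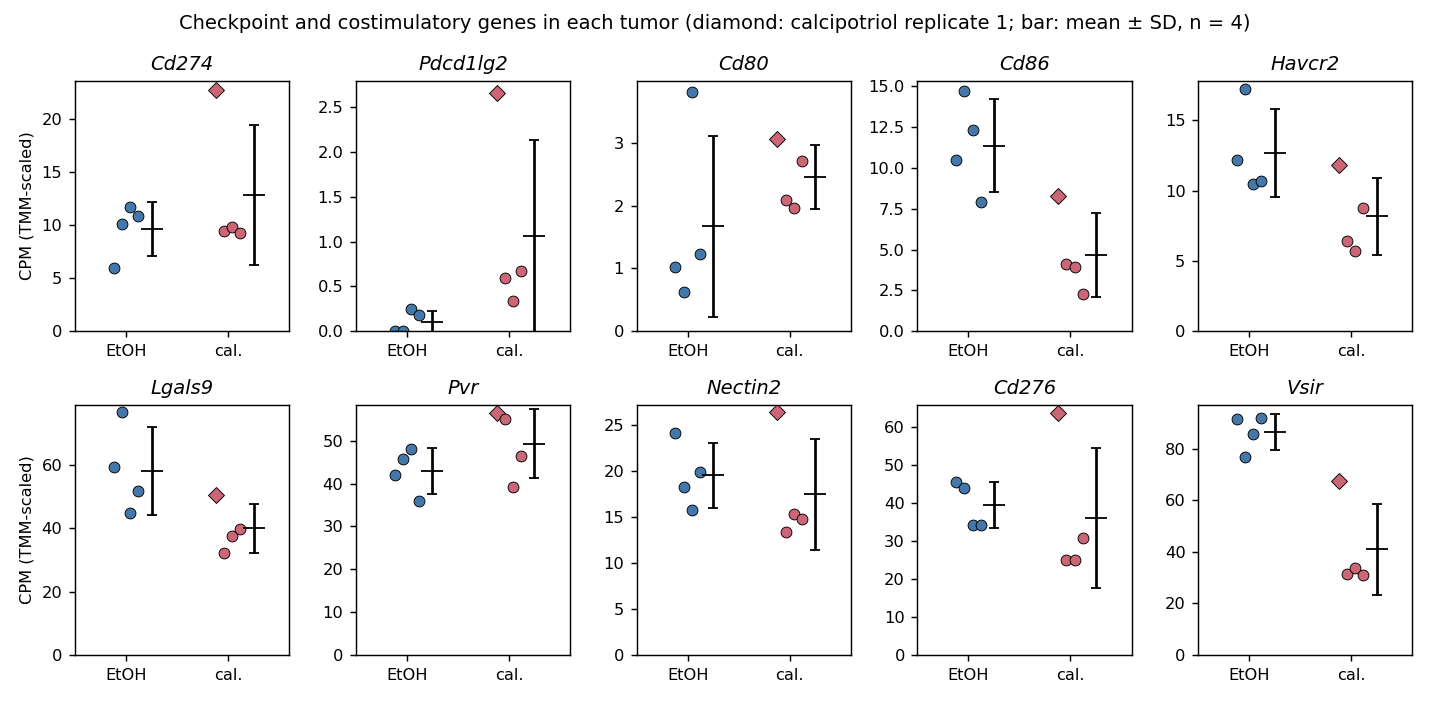
CPM of the 10 members in each tumor, 1 panel per gene, with EtOH on the left and calcipotriol (cal.) on the right; points are tumors, the diamond is calcipotriol replicate 1, and bars are the mean ± SD of 4 tumors. The 4 calcipotriol points of Vsir (30.9 to 67.4 CPM) lie below the 4 EtOH points (76.7 to 92.0 CPM), and the diamond is the highest calcipotriol point in all 10 panels.

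Vsir (ENSMUSG00000020101, chr10:60346851-60372684, plus strand, GRCm38) encodes VISTA, a B7-family protein of myeloid cells and T cells that inhibits T cell activation. It measured 91.4, 76.7, 85.7 and 92.0 CPM in the EtOH-treated tumors and 67.4, 31.5, 33.8 and 30.9 CPM in the calcipotriol-treated tumors. All calcipotriol-treated tumors lay below all EtOH-treated tumors, and calcipotriol replicate 1 was the closest to them. The mean went from 86.5 ± 7.12 CPM to 40.9 ± 17.7 CPM (SD, n = 4 each), a ratio of 0.473. edgeR gave a log2 fold change of -1.08 ± 0.24 (SE), with a 95% interval of -1.62 to -0.54 and an adjusted p of 0.0445.

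The call of Vsir rested on a narrow margin. It was lost when any tumor other than calcipotriol replicate 1 was left out. The adjusted p (edgeR) was then 0.0925, 0.0838, 0.0882 and 0.0846 without EtOH replicates 1, 2, 3 and 4, and 0.124, 0.141 and 0.127 without calcipotriol replicates 5, 6 and 7, while the log2 fold change stayed between -1.13 and -0.96. Without calcipotriol replicate 1 the log2 fold change was -1.43 with an adjusted p of 0.000462. Vsir lies over Cdh23 on the opposite strand without shared exon bases, and Cdh23 had a log2 fold change of 0.32 (adjusted p = 0.566).

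Cd276 (ENSMUSG00000035914, chr9:58524298-58555437, minus strand) encodes B7-H3, a B7-family protein carried by many tumor cells. Its levels were 45.6, 44.0, 34.3 and 34.2 CPM with EtOH and 63.6, 24.9, 25.1 and 30.7 CPM with calcipotriol. Calcipotriol replicate 1 was the highest of all 8 tumors, and the other 3 calcipotriol-treated tumors were below the EtOH group. The fitted log2 fold change was -0.13 ± 0.29 (SE; 95% interval -0.77 to 0.51, adjusted p = 0.854 by edgeR), and without calcipotriol replicate 1 it was -0.55 (adjusted p = 0.0864).

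The PD-1 ligands differed in abundance. Cd274 (ENSMUSG00000016496, chr19:29367455-29388095, plus strand) encodes PD-L1. It measured 5.93, 10.1, 11.7 and 10.8 CPM with EtOH and 22.7, 9.41, 9.85 and 9.24 CPM with calcipotriol. One tumor, calcipotriol replicate 1, was above all others, and the remaining calcipotriol-treated tumors lay within the EtOH range. The fitted log2 fold change was 0.41 ± 0.34 (SE; 95% interval -0.35 to 1.16, adjusted p = 0.572 by edgeR). Without calcipotriol replicate 1 it was -0.02 (95% interval -0.60 to 0.56, adjusted p = 0.973).

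Ifng and Irf1, genes of the interferon response, were also highest in that tumor. Ifng, encoding interferon gamma, had 0 counts in every EtOH-treated tumor and 34, 3, 7 and 9 counts in calcipotriol replicates 1, 5, 6 and 7. Irf1, a transcription factor induced by interferon gamma, measured 28.1 to 44.1 CPM with EtOH. It was at 109 CPM in calcipotriol replicate 1 and at 47.4 to 56.2 CPM in replicates 5, 6 and 7, so its groups did not overlap. It did not pass between the groups (adjusted p = 0.171 by edgeR). The part of these genes in the Cd274 level of this tumor was not tested. An antisense gene that shares 511 exon bases with Cd274, AC119228.1, had at most 18 counts in any tumor.

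Pdcd1lg2 (ENSMUSG00000016498, chr19:29410919-29471161, plus strand) encodes PD-L2, the second ligand of PD-1, and was close to the limit of detection. Its counts were 0, 0, 6 and 4 in the EtOH-treated tumors and 67, 13, 7 and 16 in the calcipotriol-treated tumors, where 3 counts corresponded to 0.119 to 0.146 CPM. The lowest calcipotriol count was above the highest EtOH count, and 67 of the 103 calcipotriol counts came from replicate 1. The mean was 0.105 ± 0.124 CPM with EtOH and 1.07 ± 1.07 CPM with calcipotriol (SD, n = 4 each). The summed counts per library size differed 9.96-fold, with a 95% interval of 5.2 to 21.4 that covers counting error only.

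On the scale of log2(CPM + 0.1), Pdcd1lg2 was higher by 2.36 with calcipotriol, with a two-sided exact permutation p of 0.0286, the smallest that 70 arrangements of the tumors can give. The ratio of the mean CPM values was 10.2 with all tumors and 5.11 without calcipotriol replicate 1. Leaving out any tumor left a difference of 1.82 to 2.7 and an exact p of 0.0571, the smallest that 35 arrangements can give. Fitted without the filter on low counts, edgeR gave a log2 fold change of 3.27 with an adjusted p of 0.228, so the gene did not pass across all genes.

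Cd80 and Cd86, the CD28 and CTLA-4 ligands of antigen-presenting cells, had fitted changes of opposite sign, and neither passed. Cd86 (ENSMUSG00000022901, chr16:36603869-36666081, minus strand) measured 10.5, 14.7, 12.3 and 7.94 CPM with EtOH and 8.3, 4.11, 3.94 and 2.25 CPM with calcipotriol. Only calcipotriol replicate 1 overlapped the EtOH-treated tumors, at a level just above the lowest of them. The mean was 11.4 ± 2.85 CPM and 4.65 ± 2.58 CPM (SD, n = 4 each), and the log2 fold change was -1.28 ± 0.38 (SE; 95% interval -2.13 to -0.44, adjusted p = 0.104 by edgeR).

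The result for Cd86 depended on the test and on the same tumor. DESeq2 gave an adjusted p of 0.0212, as 1 of 2 members called, where that test called 4.43% of all genes tested (2.25% lower). Without calcipotriol replicate 1, edgeR gave a log2 fold change of -1.72 (adjusted p = 0.0131). Over all alternatives the adjusted p of Cd86 ranged from 0.0131 to 0.254.

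Cd80 (ENSMUSG00000075122, chr16:38455561-38496335, plus strand) was scarce, at 1.02, 0.633, 3.81 and 1.23 CPM with EtOH and 3.06, 2.1, 1.97 and 2.71 CPM with calcipotriol. EtOH replicate 3 was the highest of all, and the other 3 EtOH-treated tumors were below every calcipotriol-treated tumor. The log2 fold change was 0.55 ± 0.58 (SE), and its 95% interval of -0.73 to 1.83 was the widest of the 9 members (adjusted p = 0.667 by edgeR).

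Havcr2 and Lgals9 encode TIM-3, an inhibitory receptor of T cells and myeloid cells, and galectin-9, a secreted lectin that binds it. Havcr2 (ENSMUSG00000020399, chr11:46454935-46481255, plus strand) measured 12.2, 17.2, 10.5 and 10.7 CPM with EtOH and 11.8, 6.4, 5.72 and 8.73 CPM with calcipotriol. The groups overlapped only through calcipotriol replicate 1. Its log2 fold change was -0.63 ± 0.28 (SE; 95% interval -1.24 to -0.01), with an unadjusted p of 0.0468 and an adjusted p of 0.263 (edgeR). Without calcipotriol replicate 1 it was -0.86 (adjusted p = 0.087).

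Lgals9 (ENSMUSG00000001123, chr11:78962974-78984946, minus strand), whose promoter window above held the interferon-stimulated response element, measured 59.3, 76.7, 44.7 and 51.6 CPM with EtOH and 50.6, 32.0, 37.6 and 39.6 CPM with calcipotriol. Again only calcipotriol replicate 1 reached the EtOH range. The log2 fold change was -0.54 ± 0.19 (SE; 95% interval -0.97 to -0.11), with an unadjusted p of 0.0186 and an adjusted p of 0.173 (edgeR). It was -0.67 without calcipotriol replicate 1, and it did not pass there either (adjusted p = 0.0708).

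The nectin-family ligands Pvr and Nectin2, which lie near each other on chromosome 7, did not pass. Pvr (ENSMUSG00000040511, chr7:19903578-19921160, minus strand) measured 42.0, 45.7, 48.1 and 35.9 CPM with EtOH and 56.5, 55.0, 39.2 and 46.4 CPM with calcipotriol. Its groups overlapped, and it had the narrowest interval of the members: the log2 fold change was 0.20 ± 0.15 (SE; 95% interval -0.14 to 0.54, adjusted p = 0.537 by edgeR). Nectin2 (ENSMUSG00000062300, chr7:19716644-19750483, minus strand) measured 24.1, 18.2, 15.7 and 19.9 CPM with EtOH and 26.4, 13.3, 15.3 and 14.7 CPM with calcipotriol. Calcipotriol replicate 1 was the highest of the 8 and the other 3 calcipotriol-treated tumors were below the EtOH group. The fitted change was -0.16 ± 0.24 on the log2 scale (SE; 95% interval -0.69 to 0.37, adjusted p = 0.777 by edgeR), and it was -0.43 without calcipotriol replicate 1 (adjusted p = 0.221).

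**Figure D2:**
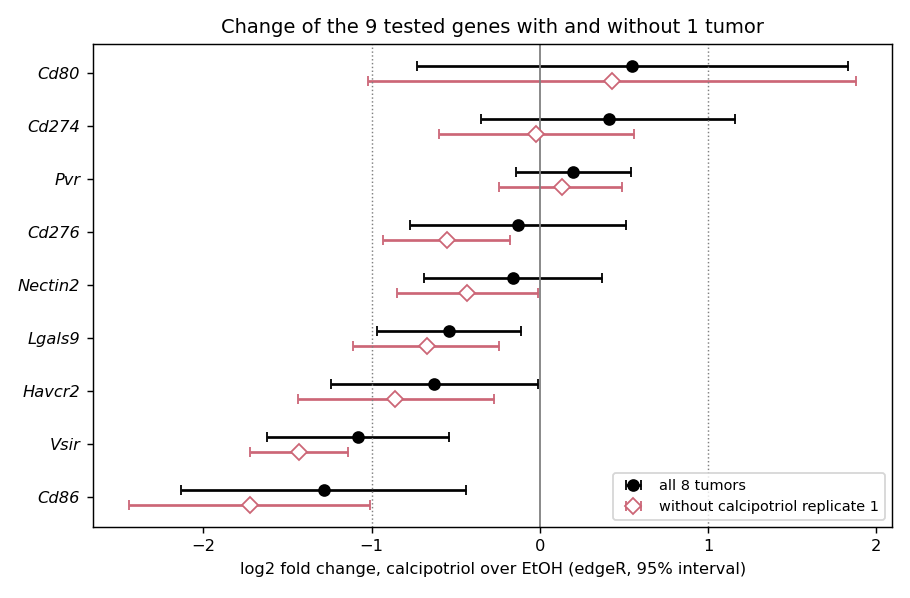
Log2 fold change of the 9 tested members, calcipotriol over EtOH, with 95% intervals from edgeR, for all 8 tumors (filled circles) and without calcipotriol replicate 1 (open diamonds); dotted lines mark a log2 fold change of 1 in either direction. Every diamond lies to the left of its circle, which follows from leaving out the tumor that was highest in the calcipotriol group for each member. Cd274 moves from 0.41 to -0.02.

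Without calcipotriol replicate 1, 6 members (Vsir, Cd86, Havcr2, Lgals9, Nectin2 and Cd276) were lower in each of the 3 remaining calcipotriol-treated tumors than in every EtOH-treated tumor. The share of all tested genes was 12.2% for this separation. That tumor was the highest of the calcipotriol group for every member, so leaving it out could only lower their calcipotriol levels. The share covers all tested genes, also those for which it was not the highest, so it is not a matched background. The number of tested members separated in the other direction was 0, against 10.8% of all genes tested. In the fit without that tumor, 2 members (Vsir and Cd86) passed both thresholds, both lower, where 4.33% of 14839 genes were called and 2.7% were called lower.

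Levels were compared between the genes as CPM per kilobase of exon. With EtOH, Lgals9 was the highest at 27.2 ± 6.45 CPM per kilobase (SD, n = 4), followed by Vsir at 17.2 ± 1.42 and Cd276 at 10.8 ± 1.68. These 3 did not overlap with each other or with Pvr (7.01 ± 0.869). Pvr, Nectin2 (5.57 ± 1.01), Havcr2 (4.64 ± 1.15), Cd86 (3.1 ± 0.779) and Cd274 (2.67 ± 0.709) each overlapped with the next in order. Cd80, at 0.452 ± 0.39 CPM per kilobase, was below Cd274 in every tumor, and Pdcd1lg2 was the lowest at 0.0535 ± 0.0633. The galectin-9 and VISTA genes were thus the most abundant of the set in solvent-treated tumors, and the PD-L2 gene the scarcest.

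With calcipotriol the order changed in its middle. Lgals9 was again the highest at 18.7 ± 3.64 CPM per kilobase and Pdcd1lg2 again the lowest at 0.544 ± 0.547. Vsir, at 8.16 ± 3.53, now stood between Cd276 (9.86 ± 5.08) and Pvr (8.05 ± 1.32), and Cd274 (3.53 ± 1.82) stood above Havcr2 (3.0 ± 1.01) and Cd86 (1.27 ± 0.704). Every neighbouring pair in this order overlapped. Without calcipotriol replicate 1 the order was again different: Pvr was second at 7.66 ± 1.29 CPM per kilobase (SD, n = 3), followed by Cd276 at 7.35 ± 0.9 and Vsir at 6.4 ± 0.311. These levels depend on which transcript is taken as the length: with the longest transcript in place of all exons, Pvr with EtOH was 14.8 instead of 7.01 CPM per kilobase.

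**Figure D3:**
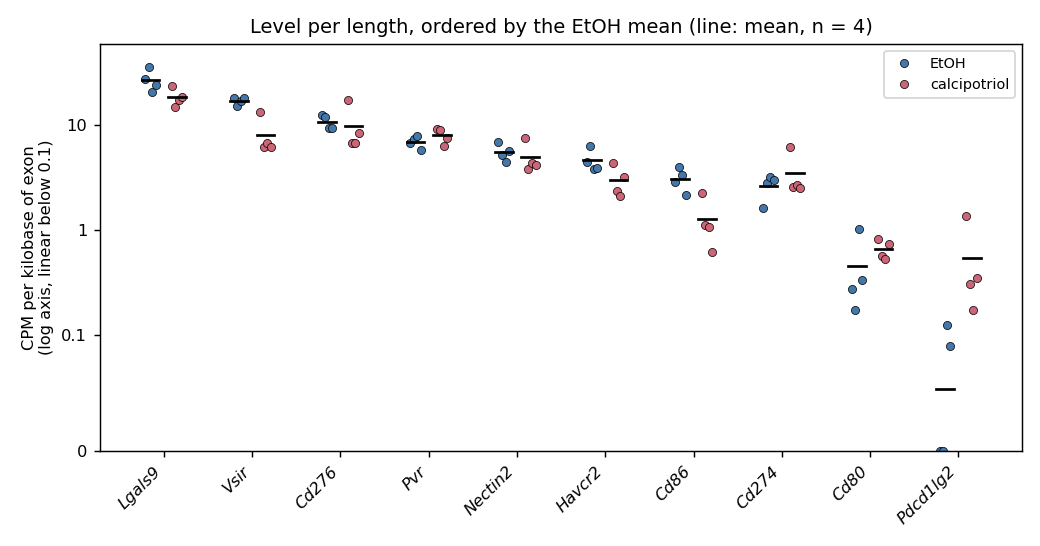
Level of the 10 members as CPM per kilobase of exon on a log axis (linear below 0.1), ordered by the EtOH mean; blue points are EtOH-treated and red points calcipotriol-treated tumors, and bars are means of 4 tumors. Means with EtOH run from 27.2 for Lgals9 to 0.0535 for Pdcd1lg2, and the groups of Vsir separate.

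Several of these genes are expressed by macrophages, and macrophage markers moved in the same direction as Vsir and Cd86. All 10 macrophage markers had a negative log2 fold change, with a median of -0.82, and 2 of them passed both thresholds in edgeR: Csf1r, the macrophage growth factor receptor (-1.64, adjusted p = 0.0374), and Adgre1, encoding F4/80 (-1.24, adjusted p = 0.0325). Both calls were lost in 7 of 8 fits that left out 1 tumor, with an adjusted p of up to 0.113 for Csf1r and 0.106 for Adgre1, and both were kept without calcipotriol replicate 1 (7.06e-05 and 0.000435). Csf1r measured 308 to 372 CPM with EtOH, 220 CPM in calcipotriol replicate 1 and 72.2 to 74.2 CPM in replicates 5, 6 and 7. The paper counted macrophages in stained sections of tumors whose mice also received a control antibody, and reports significantly more with calcipotriol. The stained protein is encoded by Adgre1, whose RNA was lower here, and the reason for this difference was not tested. In bulk tumors, fewer macrophages and less RNA of a gene per macrophage cannot be told apart.

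The members were therefore also expressed per 1000 CPM of the summed macrophage markers, most of which is C1q RNA. This is a scale of marker RNA and not of macrophage number. On this scale Vsir was 37.8 ± 2.9 with EtOH (36.1 to 42.1) and 33.8 ± 2.55 with calcipotriol (30.9 to 36.4; SD, n = 4 each), a ratio of 0.895 where the ratio of CPM was 0.473. The groups of Vsir, separate in CPM, overlapped. Cd86 was 5.04 ± 1.6 with EtOH and 3.71 ± 0.749 with calcipotriol, a ratio of 0.736 where that of CPM was 0.41. Havcr2 and Lgals9, lower in mean CPM with calcipotriol, had ratios of 1.26 and 1.37 and overlapping groups. The part of the macrophage markers in these changes was not tested.

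The remaining 6 members, 5 of them tested, were higher per macrophage marker in every calcipotriol-treated tumor than in every EtOH-treated tumor. On this scale 38.8% of all genes tested were separated in that direction and 0.367% in the other. Cd274 was 4.19 ± 1.02 with EtOH (2.73 to 4.94) and 10.4 ± 1.27 with calcipotriol (9.24 to 11.9), a ratio of 2.48. Calcipotriol replicate 1, which stood apart in CPM of Cd274, was at 11.9 on this scale and the other 3 at 9.24 to 10.9. The ratios were 2.33 for Pvr, 1.72 for Nectin2, 1.69 for Cd276, 3.06 for Cd80 and 18.1 for Pdcd1lg2. The macrophage sum itself was 1.91 times higher with EtOH, so that a gene with equal CPM in every tumor would also have a ratio above 1 on this scale. The ratios of Nectin2 and Cd276 were above 1 although their mean CPM was lower with calcipotriol (ratios of 0.895 and 0.913).

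**Figure D4:**
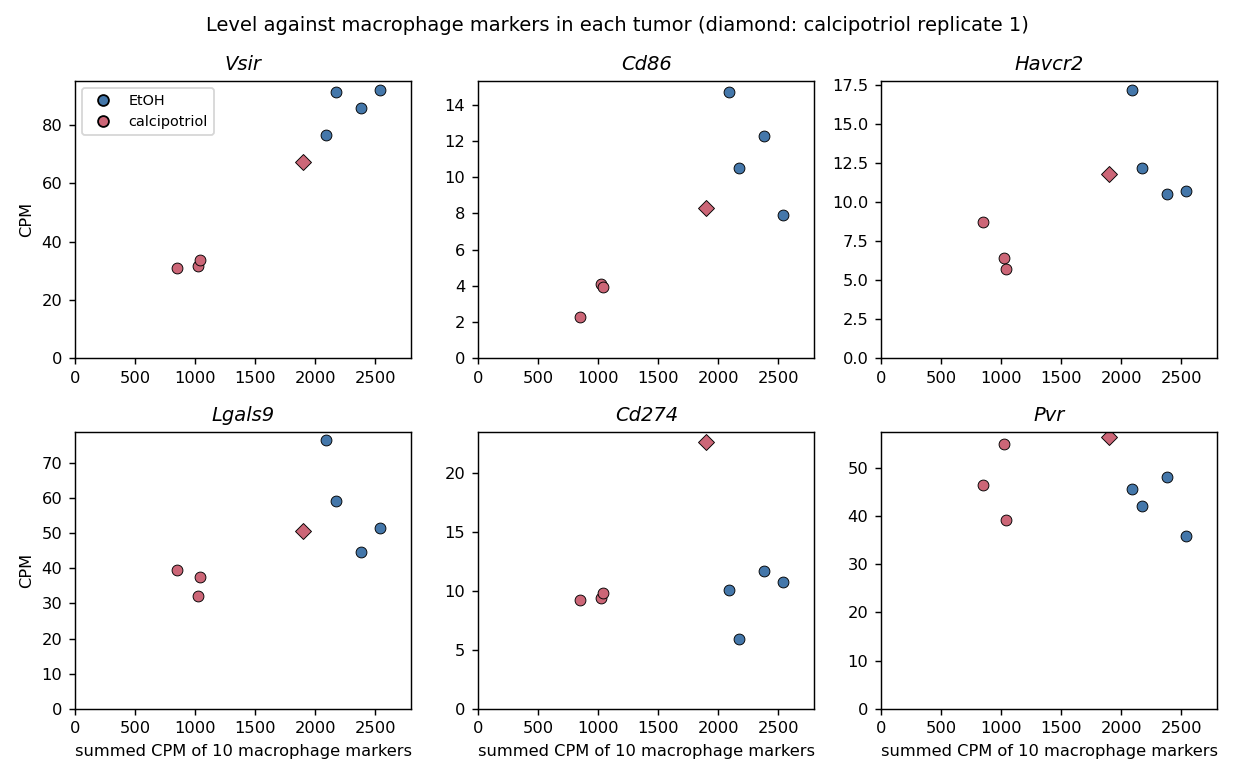
CPM of 6 members against the summed CPM of 10 macrophage markers in each tumor (blue, EtOH; red, calcipotriol; diamond, calcipotriol replicate 1). Vsir and the macrophage sum are lowest together in calcipotriol replicates 5, 6 and 7 (30.9 to 33.8 CPM and 849 to 1040 CPM), whereas Pvr spans 39.2 to 56.5 CPM in calcipotriol-treated tumors over the whole range of the sum.

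Markers of other cell types also moved. Summed dendritic cell markers were 290 to 387 CPM with EtOH and 174 to 281 CPM with calcipotriol, but nearly all of this was Fscn1, an actin-bundling gene. The other 8 markers summed to 11.2 to 19.3 CPM and 7.26 to 27.4 CPM, which overlap, and Zbtb46, a transcription factor of conventional dendritic cells, had a higher mean with calcipotriol (1.72 and 3.76 CPM, adjusted p = 0.148 by edgeR). T cell markers were 1.59 to 3.79 CPM with EtOH and 3.48 to 15.9 CPM with calcipotriol, with 0 of 5 tested past the threshold; each of the 5 was below the filter's minimum in at least 1 EtOH-treated tumor. NK cell markers were 0.487 to 2.07 CPM and 1.95 to 8.03 CPM. Summed B cell markers were under 2.7 CPM in every tumor, at 1.13 to 2.69 CPM with EtOH and 0.297 to 0.457 CPM with calcipotriol.

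Of the nonimmune lists, endothelial markers were 133 to 306 CPM with EtOH and 51.1 to 108 CPM with calcipotriol (3 of 7 called lower). Erythroid markers were 3460 to 5840 CPM and 435 to 821 CPM (5 of 7 called lower; 2 of the 7 were below the filter's minimum in some calcipotriol-treated tumors). Epithelial markers summed to 1010 to 1320 CPM and 594 to 894 CPM, a difference carried by Krt8 and Krt18. The other 6 summed to 5.01 to 28.2 CPM with EtOH and 13.1 to 67.8 CPM with calcipotriol, and the 5 of them that were tested had a higher fitted level with calcipotriol without passing. Of those 5, Epcam, Krt19, Krt7 and Cldn4 were below the filter's minimum in some EtOH-treated tumors. Fibroblast markers (1880 to 2740 CPM and 2030 to 3820 CPM) and neutrophil markers (30.3 to 102 CPM and 38.5 to 148 CPM) overlapped between the groups, as did those of skin (9.8 to 13.6 CPM and 3.97 to 15.1 CPM), skeletal muscle (0.73 to 33.1 CPM and 0.516 to 4.71 CPM) and adipocytes (0 to 23.9 CPM and 1.63 to 17.3 CPM). Their part in the members' levels was not tested.

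The receptors and partners of the members were mostly scarce. Of 14 genes, 10 were tested, 5 with a higher and 5 with a lower fitted level, and 0 passed an adjusted p of 0.05, which 2.74% of all genes tested passed. Their median log2 fold change was 0.20. The lowest p values among those with a mean of at least 1 CPM belonged to Ctla4, encoding the inhibitory receptor for CD80 and CD86, and Ceacam1, a ligand of TIM-3. The counts of Ctla4 were 16, 0, 12 and 4 with EtOH and 26, 77, 49 and 40 with calcipotriol. The groups of Ctla4 did not overlap, and the mean was 0.36 and 2.15 CPM. Its log2 fold change was 2.56 ± 0.93 (SE), with an adjusted p of 0.175 (edgeR), and it too passed the filter through the calcipotriol-treated tumors. Within the calcipotriol group Ctla4 was lowest in replicate 1, the tumor with the highest summed T cell markers. Ceacam1 had a log2 fold change of 0.57 with an adjusted p of 0.477.

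Among 15 other checkpoint and costimulatory ligands, 12 were tested, 6 at a higher and 6 at a lower fitted level, and 1 passed. Lgals3 encodes galectin-3, a lectin made by macrophages and carcinoma cells that binds LAG-3. It rose from 152, 144, 199 and 228 CPM to 611, 492, 359 and 272 CPM, with no overlap. The means were 181 and 433 CPM, and the log2 fold change was 1.26 ± 0.25 (SE; adjusted p = 0.029 by edgeR). The call was lost in 5 of 8 fits that left out 1 tumor: the adjusted p was 0.0801, 0.0854 and 0.0668 without EtOH replicates 1, 2 and 3, and 0.0789 and 0.0607 without calcipotriol replicates 5 and 6. The list's median log2 fold change was -0.04, and Cd70 had 0 counts in all tumors.

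Among 13 other checkpoint and costimulatory receptors, 10 were tested, 6 at a higher and 4 at a lower fitted level, and Klrc1 alone had an adjusted p under 0.05. The median log2 fold change was 0.13. Klrc1 encodes NKG2A, an inhibitory receptor of NK cells and T cells. The counts were 0, 0, 0 and 3 with EtOH and 50, 17, 20 and 25 with calcipotriol. The ratio of the summed counts per library size was 36.1, with a 95% counting interval of 12 to 178. It passed the filter on low counts only through the calcipotriol-treated tumors, where it is high, so its p is not read as support and it is described by its counts. Klrc1 has close relatives in the same gene cluster, so its reads are uncertain.

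**Figure D5:**
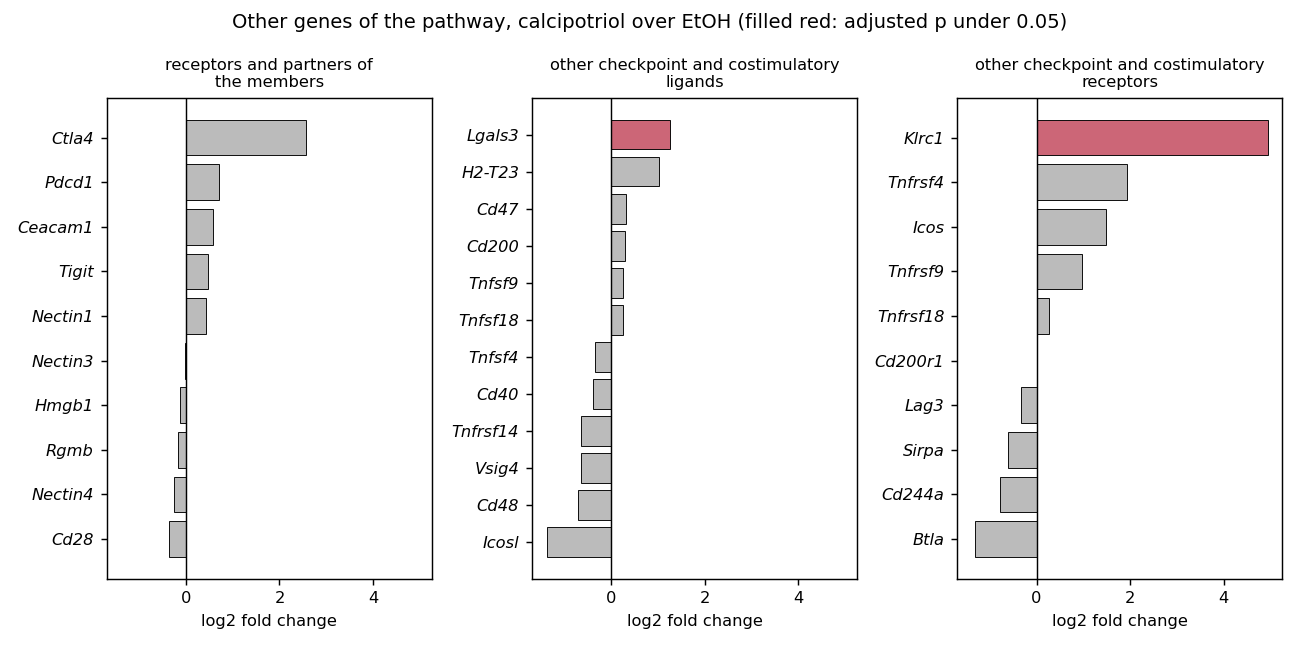
Log2 fold change, calcipotriol over EtOH, of the tested genes of 3 lists around the members (receptors and partners, other ligands, other receptors), 1 bar per gene from edgeR; red bars have an adjusted p under 0.05. Red are Lgals3 (1.26) and Klrc1 (4.94, a fitted value of a gene that passed the low-count filter only through the calcipotriol-treated tumors).

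Of 19 regulators of PD-L1 and PD-L2, 16 were tested, 7 at a higher and 9 at a lower fitted level, with a median log2 fold change of -0.06. Il13ra1, a subunit of a receptor through which IL-4 and IL-13 act on macrophages, was the 1 with an adjusted p under 0.05. It measured 72.7, 78.1, 86.8 and 84.6 CPM with EtOH and 119, 159, 130 and 156 CPM with calcipotriol, with no overlap. The log2 fold change was 0.81 ± 0.13 (SE; adjusted p = 0.0137 by edgeR), below the fold threshold. It kept an adjusted p under 0.05 in all 8 fits that left out 1 tumor (up to 0.0475). Il4ra and Stat6 had log2 fold changes of 0.19 and -0.1 and did not pass (adjusted p = 0.451 and 0.688 by edgeR). The cytokine genes Il4 and Il13 were below the filter, with at most 6 and 8 counts in any tumor.

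The genes whose pattern among tumors was most like that of a member were found by the correlation of deviations from the group means over the 8 tumors, among 12312 protein-coding genes. These values describe 8 libraries that share their depth and cell content. They are the highest of 12312 genes over few tumors, so the selection alone gives values near 1. They are not read as a link between the genes. For Vsir they were H2-DMa (r = 0.99), H2-K1 (0.99) and Cd81 (0.98), genes of antigen presentation and a tetraspanin. Calcipotriol replicate 1 held 70.6% of the within-group variation of Vsir, and without it the values were 0.73, 0.75 and 0.72. For Cd274 they were Slc35c1 (0.98), Rab32 (0.97) and Plekhb2 (0.97), and without that tumor 0.96, 0.94 and 0.94.

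For Cd86 the most alike were Abcg1, Il18bp and Ebi3, at 0.96 each, and 0.89, 0.91 and 0.89 without calcipotriol replicate 1. For Lgals9 they were Pld3 (0.98), Bag3 (0.98) and Smad4 (0.97), and calcipotriol replicate 1 held 23.3% of the within-group variation of Lgals9. No gene was named for more than 1 of these 4 members.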

How the data were processed

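RNA from 8 tumors was sequenced, and the authors deposited estimated counts per gene (expected counts), unscaled between tumors. The submitters' processing notes name STAR 2.5.3, RSEM 1.3.1, DESeq2 1.24.0 and GRCm38 without roles, and the annotation release is not given in the sources used here. The library kit is not stated to mark strand, so reads of overlapping antisense genes cannot be told apart. Of the values, 4.2% to 6.22% per tumor were not whole, and all were rounded. Symbols, positions and exon lengths came from GENCODE M21 (52133 of 55414 identifiers matched); identifiers without a symbol held 0.305% to 1.98% of counts and stayed in the fit. The table has 0 columns of other samples.

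Groups came from the labels, and the methods call the 4 tumors of a group biological replicates. Counts were fitted across all genes with edgeR 4.0.16 in R 4.3.3 (filterByExpr, TMM, glmQLFit, glmQLFTest; biological coefficient of variation 0.347), with Benjamini-Hochberg adjustment. CPM used TMM-scaled library sizes. Pdcd1lg2, below the filter, was compared by an exact permutation test of log2(CPM + 0.1). Counting intervals and the floor of 3 counts cover counting error only, since PCR reads are not independent molecules. On data simulated from these libraries for this comparison, 200 genes were shifted by 2 on the log2 scale: edgeR found 187 and made 11 false calls (14264 genes in the fit), limma-voom found 184 (13 false) and DESeq2 183 (29 false). The simulation gave all genes the same dispersion and had no deviating tumor, and its shift was larger than the fitted change of any tested member. It therefore does not measure the power for the members.

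The members and lists were chosen with earlier results of these data known. All members are named. Of each list of related genes, those with an adjusted p under 0.05 are named or, where there are none, the 2 with the smallest p and at least 1 CPM. Ifng, Irf1, Il4, Il13, Il4ra, Stat6, Csf1r, Adgre1, Krt8, Krt18, Epcam and other markers are values of the lists given beside a result. With Cd70, they were named after their values were seen. For likeness the 3 most alike genes are named for 4 members. Alternatives were DESeq2 size factors, no filter, at least 10 counts in every tumor, the DESeq2 (1.42.0) and limma-voom (limma 3.58.1) tests, each tumor left out, no fold minimum and longest-transcript lengths. A geometric mean of the macrophage markers and a pseudocount of 1 CPM were added after seeing the data. Single values of some list genes are not reported here.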

Additional observations from a re-analysis of the deposited data

Results flagged for a closer look

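Of 20 sets of 4 tumors (10 members in 2 groups), 2 had a tumor far from the other 3 by Dixon's ratio on the log2(CPM + 0.1) scale, where chance gives about 1 in 20. Both were calcipotriol replicate 1. Cd274 measured 22.7 CPM in it and 9.24 to 9.85 CPM in calcipotriol replicates 5, 6 and 7. Vsir measured 67.4 CPM in it and 30.9 to 33.8 CPM in the others.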

How the results depend on the processing

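No paired analysis was possible because the groups share fewer than 2 replicate numbers. Across the 9 tested members, 44 of 45 values from other fits and 61 of 72 from fits that left out 1 tumor kept their direction and their side of an adjusted p of 0.05. When 1 tumor was left out, Cd274 ranged from -0.02 to 0.54, below 0 without calcipotriol replicate 1, and Cd276 from -0.55 to 0.01, above 0 without calcipotriol replicate 5 or 6; none of these passed. Past both thresholds in all were 292 genes, 458 with no filter, 640 with the DESeq2 test and 110 to 642 when 1 tumor was left out. Members with an adjusted p under 0.05, and members past both thresholds, numbered 1, or 2 with the DESeq2 test, and 0 to 2 when 1 tumor was left out. The difference of Pdcd1lg2 was 1.82 to 2.7 when 1 tumor was left out and 0.79 with a pseudocount of 1 CPM (exact permutation p = 0.0286). The causes were not tested. The median log2 fold change of all genes was 0.01 to 0.03 except with no filter (0.11). With the geometric mean of the macrophage markers the ratios were 0.923 for Vsir, 0.777 for Cd86 and 2.56 for Cd274, and all 10 members kept the same side of 1. Depth limits Pdcd1lg2, Cd80 and most receptors: 3 counts were 0.119 to 0.146 CPM.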

Other observations

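The balance of the CD28 ligands can be read within each tumor. Cd86 exceeded Cd80 in CPM per kilobase 10.4, 23.5, 3.26 and 6.5 times in EtOH replicates 1 to 4, and the ratio was 2.75, 1.98, 2.02 and 0.838 in calcipotriol replicates 1, 5, 6 and 7. All 4 calcipotriol-treated tumors were below all EtOH-treated tumors, and in calcipotriol replicate 7 Cd80 exceeded Cd86. That excess in replicate 7 holds for all-exon lengths only. It is lost with the longest transcripts, of 2539 bases for Cd86 and 3173 for Cd80. The EtOH ratios rest on few Cd80 counts, 13 to 94 per tumor. This ratio was chosen after its values were seen, and it is given without a test.

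Klrc1 and H2-T23, which encode the receptor NKG2A and its ligand Qa-1b, both had higher means with calcipotriol. Klrc1 rests on the few counts given above and passed the low-count filter only through the calcipotriol-treated tumors. A link between these genes was not tested. H2-T23, named after its values were seen, measured 82.6, 70.2, 77.6 and 88.5 CPM with EtOH and 278, 103, 142 and 125 CPM with calcipotriol, with no overlap. Its log2 fold change was 1.02, and it did not pass (adjusted p = 0.0776 by edgeR). The adjusted p ranged from 0.0047 to 0.181 over the alternatives and was 0.0321 without calcipotriol replicate 1, where the log2 fold change was 0.63. H2-T23 belongs to a family of near-identical class I genes, so its reads are uncertain.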
